A study of Mus musculus with 12 samples.

Results

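The prion gene cluster of mouse chromosome 2 was described through its regions of trimethylated lysine 9 of histone H3 (H3K9me3), a mark of silent chromatin, in embryonic stem cells with and without a working copy of Tex19.1. All regions of the authors' deposited table that overlap the 160 kb from 131800000 to 131960000 on chromosome 2 (build mm10) were taken, which gave 9 of 68291 regions. The genes of the stretch are Prnp, Prn, Erv3, the noncoding RNA gene 5330413P13Rik and Prnd. The stretch was proposed because of its log2 fold changes and FDR in the same comparison, so the values below are descriptions and no test of the stretch was made.

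The groups were Tex19.1-/- (knockout) and Tex19.1+/- (heterozygous) cells, each with 3 immunoprecipitated and 3 input libraries, or 12 in all. Both derive from E14Tg2a, a stem cell line of 129/Ola background, were grown with serum and leukaemia inhibitory factor, and were taken at passages 12 to 20. How many clones stand behind each genotype is not given in the sources used here. The table holds 1 comparison of the genotypes, with no value of a single library, and does not say which genotype is on top of the fold change. A positive log2 fold change therefore means more signal in 1 genotype, which cannot be named.

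Prnp encodes the prion protein, a glycoprotein tethered to the outer cell membrane, whose misfolded form propagates in the prion diseases. Prnd, just downstream, encodes its relative Doppel, known mainly from the testis, and Prn denotes transcripts that read through from Prnp into Prnd. Erv3 is named for an endogenous retroviral sequence. In embryonic stem cells H3K9me3 is laid down by SETDB1, recruited through TRIM28 and zinc finger proteins, at many endogenous retroviruses, and Tex19.1 is a gene found in mammals and active in the germline and in pluripotent cells, with a known part in the control of retrotransposons.

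The start of Erv3 lay inside an H3K9me3 region, while those of Prnp and Prnd did not. The sequences below are the 250 bases before each start, from RefSeq on GRCm38.p6 (the assembly that mm10 names, strain C57BL/6J rather than the 129/Ola of the cells), and show which bases the mark's regions reach. Capitals mark bases within an H3K9me3 region of the table.
Erv3, chr2:131859748-131859997, minus strand: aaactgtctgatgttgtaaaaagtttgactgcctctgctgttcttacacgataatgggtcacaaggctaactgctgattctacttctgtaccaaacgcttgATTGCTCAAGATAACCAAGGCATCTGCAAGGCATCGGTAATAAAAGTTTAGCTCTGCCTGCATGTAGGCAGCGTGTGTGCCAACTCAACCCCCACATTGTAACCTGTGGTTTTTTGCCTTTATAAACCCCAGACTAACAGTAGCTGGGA
Prnp, chr2:131909678-131909927, plus strand: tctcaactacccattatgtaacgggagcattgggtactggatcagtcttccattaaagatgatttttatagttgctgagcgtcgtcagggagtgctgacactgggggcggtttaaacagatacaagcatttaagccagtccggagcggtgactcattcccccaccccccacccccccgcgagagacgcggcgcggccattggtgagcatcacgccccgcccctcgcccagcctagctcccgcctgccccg
Prnd, upstream start, chr2:131950611-131950860, plus strand: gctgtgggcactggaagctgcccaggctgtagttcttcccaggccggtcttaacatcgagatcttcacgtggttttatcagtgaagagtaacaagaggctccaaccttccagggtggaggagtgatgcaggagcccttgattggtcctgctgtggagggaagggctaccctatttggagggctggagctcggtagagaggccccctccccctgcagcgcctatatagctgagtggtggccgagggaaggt
Of the Erv3 sequence, 149 bases lay within the region and 101 upstream of it. The first base of Prnp, shared with Prn, lay 3883 bp from the nearest region, and the upstream start of Prnd 8007 bp. The 250 bases before Prnp hold 17 CpG dinucleotides, those before Erv3 4 and those before Prnd 6, against a median of 6 over 32851 RefSeq promoter sequences of that length. Of all these sequences, 76.5% have fewer CpG than Prnp and 37.8% have fewer than Erv3. On either strand, TATAAA begins 31 and 29 bases before the Erv3 start, 2 overlapping matches on opposite strands, and 186 bases before the Prnp start, and 12.4% of all promoters hold that motif. GGGCGG, the core of a GC box, begins 146 and 35 bases before the Prnp start on either strand, is not in the Erv3 or Prnd window, and is found in 32.7% of all promoters. CCAAT begins 222 and 53 bases before the Prnp start and 111 before that of Prnd, is not in the Erv3 window, and is found in 33.8%. These matches describe letters only.

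All 9 regions of the cluster were positive in the authors' deposited table, with log2 fold changes from 0.25 to 0.92 and a median of 0.58. The median over all regions was -0.01, and 49.2% of them were positive. By the deposited FDR, with a limit of 0.05, 4 of the 9 were called, all positive, against 0.281% of all regions called and 0.192% called positive. Because the stretch was chosen from this contrast, nothing is read from the comparison of these shares. The calls lay at 5330413P13Rik, at Erv3 and, in 2 regions, in the body of Prnp, which Prn shares. An unadjusted p below 0.05 was found in 6 of the 9, all positive, against 4.74% of all regions and, for positive ones, 2.70%. The standard errors (SE) given here were derived from the deposited p-values, and nothing shows that those measure variation between cultures.

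**Figure D1:**
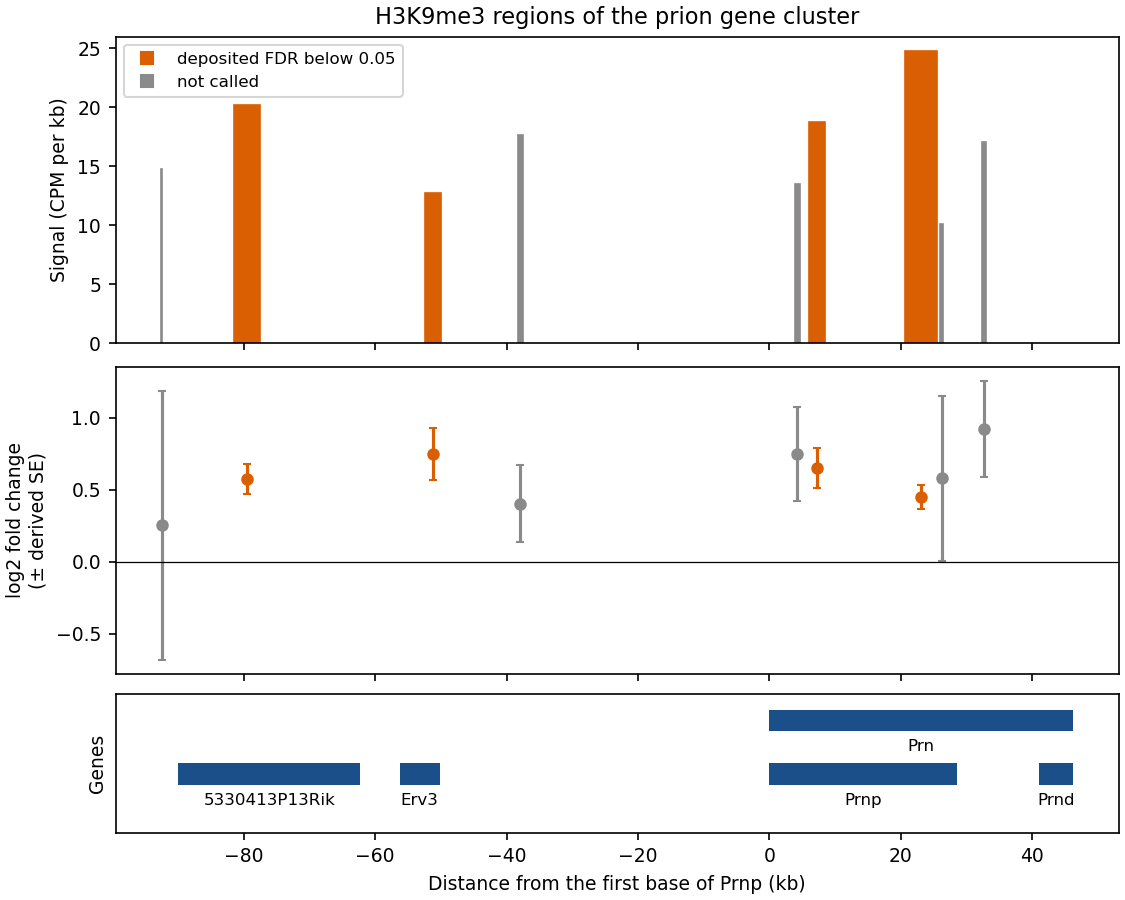
Top, signal per kilobase of the 9 regions, each bar as wide as its region; middle, their log2 fold change with the derived standard error; bottom, gene bodies, all against distance from the first base of Prnp in kb. All 9 points lie above 0, the 4 called regions (orange) include the widest, and no region lies over Prnd.

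The noncoding RNA gene 5330413P13Rik (gene ID 414081, chromosome 2, 131820006 to 131847656) carried 1 region in its body, from 131828398 to 131832437. It had 81.5 CPM, or 20.2 CPM per kb, and the authors' deposited table gives it a log2 fold change of 0.57 (SE 0.10, FDR 8.46e-05; the submitters' processing notes name edgeR). This is a 1.49-fold difference, and the smallest p of the cluster. A weak region 2447 bp outside the gene, from 131817374 to 131817559, had 2.74 CPM and, by the authors' deposited table, a log2 fold change of 0.25 at an FDR of 1. The error of regions of like signal is 0.94, so that no difference was detectable there at this depth.

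The region at Erv3 (gene ID 71995, chromosome 2, 131853678 to 131859747, minus strand) ran from 131857580 to 131859896 and covered 35.7% of the gene body, its start and the capitals printed above. It had 29.6 CPM, or 12.8 CPM per kb, and its log2 fold change was 0.75 (SE 0.18, FDR 0.0165; the authors' deposited table), or 1.68-fold. That was the largest difference of the 4 called regions and the largest FDR among them. It did not pass an FDR limit of 0.01 or Holm adjustment (adjusted p = 1). A region 11850 bp upstream of Erv3, from 131871597 to 131872401, had 14.2 CPM, 17.6 CPM per kb, and a log2 fold change of 0.40 (SE 0.27, FDR 1; the authors' deposited table).

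Prnp (gene ID 19122, chromosome 2, 131909928 to 131938436) overlapped 4 regions, which covered 29.7% of its body and began 3883, 5940, 20685 and 25964 bp into the gene. Exons and introns were not analysed here. The region from 131930613 to 131935443 was the strongest of the cluster, at 119 CPM or 24.7 CPM per kb, a density that exceeded 99.6% of all regions. It stood at a log2 fold change of 0.45 (SE 0.09, FDR 0.000278; the authors' deposited table), or 1.37-fold. The region from 131915868 to 131918330 had 46.3 CPM, 18.8 CPM per kb, and a log2 fold change of 0.65 (SE 0.14, FDR 0.00339; the authors' deposited table), or 1.57-fold. Under Holm adjustment the stronger region was still called (adjusted p = 0.0119) and this one was not (adjusted p = 0.23). Both have Prn as a second host gene, and the table cannot assign signal to either.

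The remaining regions in Prnp and Prn were weak. From 131913811 to 131914527 the log2 fold change was 0.75 (SE 0.33, FDR 0.829) at 9.69 CPM, and from 131935892 to 131936359 it was 0.58 (SE 0.57, FDR 1) at 4.73 CPM, both by the authors' deposited table. Between Prnp and Prnd, within the longer Prn (gene ID 111368, 131909928 to 131956131), a region from 131942296 to 131942854 had a log2 fold change of 0.92 (SE 0.33, FDR 0.492; the authors' deposited table) at 9.52 CPM. It was the highest value of the cluster and was not called. Among all 17711 regions with a log2 CPM of 3 to 4, 12 were called and the smallest called change was 1.00, so none of the 3 cluster regions of that signal reached the size at which calls were made. Prnd (gene ID 26434, 131950861 to 131956131) had no region within 5 kb, the nearest being 6104 bp away.

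Among the 4 called regions, the 6 pairwise differences in log2 fold change were 0.43 to 1.51 times their combined SE. The SEs were combined as if the regions were independent, though all come from the same comparison. These regions were selected by their calls in a stretch chosen by its values, so the ratios do not show that they changed alike. Called regions were wide and strong, with a median width of 3252 bp and 29.6 to 119 CPM, and the others were narrow and weak, with a median width of 559 bp and 2.74 to 14.2 CPM. The median log2 fold change, by the authors' deposited table, was 0.61 for the called and 0.58 for the other regions. With the median of regions of like signal subtracted, all 9 values were positive still, from 0.18 to 0.91, with a median of 0.65.

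**Figure D2:**
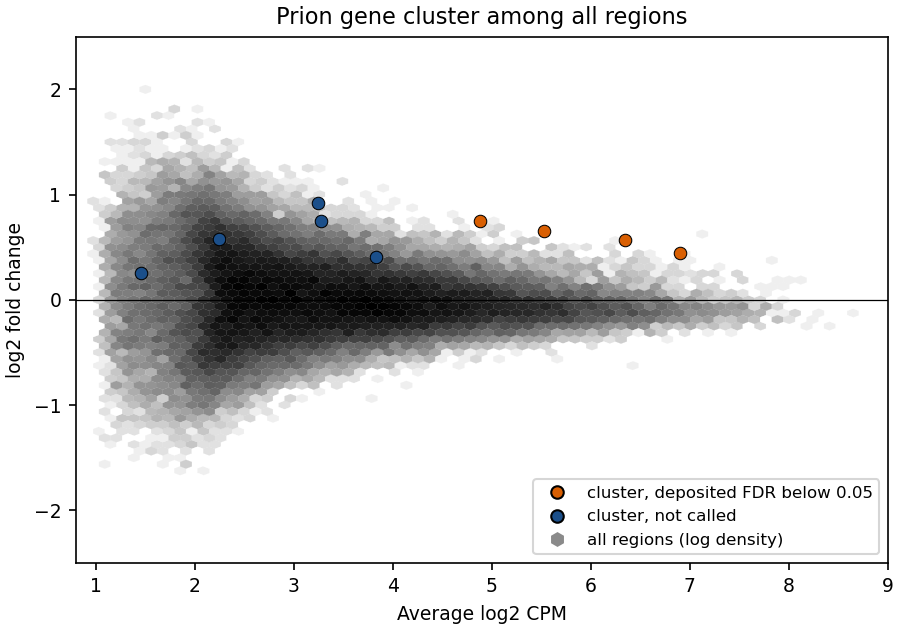
Log2 fold change against average log2 CPM for all regions (grey hexagons, darker where more regions lie) and the 9 regions of the cluster (orange, called; blue, not called). The 4 called regions have the highest signal of the 9 and lie along the upper edge of the cloud.

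H3K9me3 regions were denser in the cluster than around it. The cluster had 5.63 regions per 100 kb, and 10.2% of its length was covered, against 1.80 and 1.87% in the 1 Mb to its left (lower coordinates), 1.70 and 1.68% in the 1 Mb to its right, and 2.13 and 2.48% over chromosome 2. The median signal was 17.0 CPM per kb in the cluster, against 11.3 in the left flank, 14.5 in the right flank and 11.3 over all regions. The stretch was not drawn by this measure, but it was drawn around regions, so these values too are a description.

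The positive values did not end at the right edge of the cluster. All 14 regions from there to 132491092 were also positive, with a median of 0.75 by the authors' deposited table. That end was set where the sign first turned negative, after the values were seen. The whole right flank of 17 regions had 15 positive and 2 negative values, with a median of 0.72. Because the 14 were counted up to where the sign turned, nothing is read from their share of calls beside that of all regions. Among the 14, 2 were called, both positive, against 0.281% of all regions called and 0.192% called positive. One, from 132358522 to 132360859, lay 8846 bp from Prokr2, a receptor for prokineticins, and had a log2 fold change of 0.72 (SE 0.17, FDR 0.00964; the authors' deposited table). The other, from 132423587 to 132425276 in 4921508D12Rik, had 0.68 (SE 0.17, FDR 0.0356; the authors' deposited table), a call lost without chromosomes 11 and 16 in the adjustment. The region next in p, from 132361907 to 132362803 and 6902 bp from Prokr2, had 0.85 (SE 0.23, FDR 0.0722; the authors' deposited table). The strongest region of this flank, from 132330803 to 132333561 and 18753 bp from Cds2, an enzyme of phospholipid synthesis, had 63.2 CPM and a log2 fold change of 0.31 (SE 0.12, FDR 0.574; the authors' deposited table). Neither Rassf2 nor Slc23a2, the next protein-coding genes, had a region within 5 kb. Positive values of this size were thus found beyond the prion genes as well.

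On the left the values turned sooner. At that edge, the first region inside the cluster had a log2 fold change of 0.25 and the last outside, from 131783190 to 131783624, 0.13, by the authors' deposited table. On the right the last inside had 0.92 and the first outside, from 131962235 to 131962454, 0.39, by the authors' deposited table. Just beyond 131783190, the region from 131778930 to 131781647 had 31.2 CPM and a log2 fold change of -0.13 (SE 0.19, FDR 1; the authors' deposited table). The strongest of the left flank, from 131644903 to 131651626, had 92.2 CPM and -0.16 (SE 0.10, FDR 1; the authors' deposited table). The left flank was divided at its farthest negative region, after the values were seen. The 9 regions from there to the cluster had a median of -0.16, with 3 positive and 6 negative, among them 1 from 131724770 to 131726225 at -0.68 (SE 0.34, FDR 1; the authors' deposited table). The 9 farther ones, positive by this division, include regions in Siglec1 and Adam33 and had a median of 0.79 by the authors' deposited table, at 2.29 to 23.1 CPM and a median of 3.84 CPM. Of these far regions, the 2 with the smallest p, from 131116413 to 131117637 and from 131384666 to 131385318, had 0.48 (SE 0.20, FDR 0.777) and 0.99 (SE 0.50, FDR 1), by the authors' deposited table. No region of the left flank was called, but with 0.281% of all regions called, 0 of 18 says little. Of the 18, 3 had an unadjusted p below 0.05, 2 of them positive, against 4.74% of all regions.

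**Figure D3:**
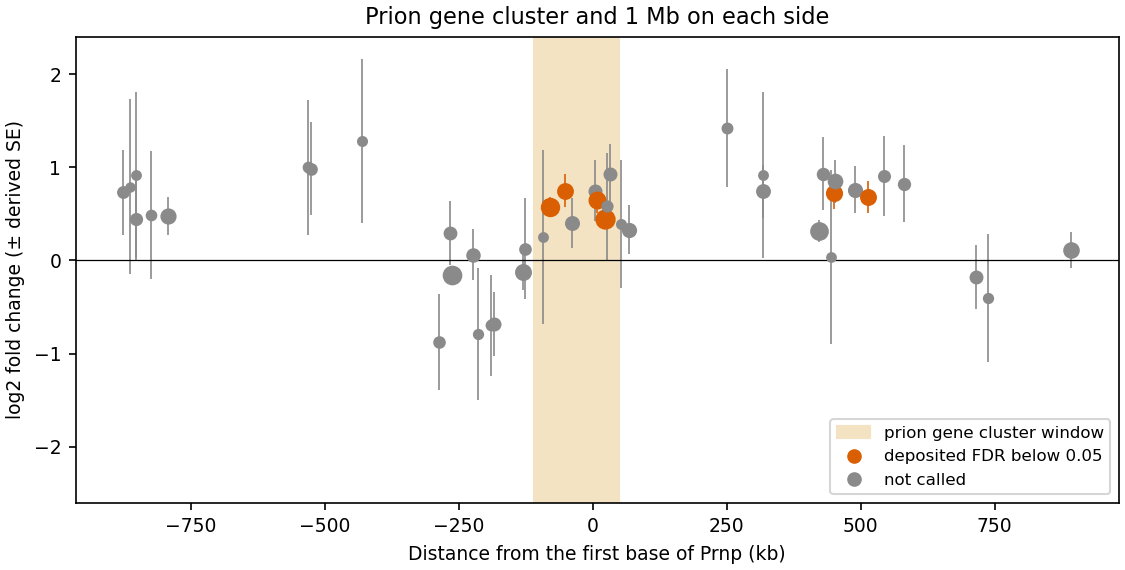
Log2 fold change, with the derived standard error, of the 9 regions of the cluster (shaded), the 18 in the left flank and the 17 in the right flank, against distance from the first base of Prnp in kb; larger points have more signal. Values are positive through the cluster and the first 14 regions to its right, counted up to where the sign turned, and mixed just to its left.

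Counting on both sides, 24 consecutive regions over 708 kb, from 131783190 to 132491092, were positive, with a median of 0.70, and they held 6 of the 7 positive calls on chromosome 2. The cluster contributed 9 of these regions and 4 of the 6 calls, and was chosen by these values. The 15 regions of the run outside the cluster held 2 positive calls, against 0.192% of all regions called positive. The run was extended for as long as values stayed positive, so nothing is read from the comparison of these shares. The region after the run, from 132624154 to 132625053, had -0.18 by the authors' deposited table. Chromosome 2 had a median of -0.0013 over 3819 regions. Of its 166 tiles of 1 Mb with at least 8 regions, 2 had the highest medians. These were the tile that holds the cluster (0.45) and the next one to its right (0.74), and the highest of the others was 0.30. The tile of the cluster has 29 regions, among them the 9 of the cluster. Its rank therefore rests in part on the values used to choose the stretch. The tiles to either side of this pair had 0.06 on the left and -0.09 on the right. This run was noticed in the data and was not tested. No input value accompanies the regions, so a difference in the amount of DNA between the lines and a difference in the mark cannot be told apart in the table.

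**Figure D4:**
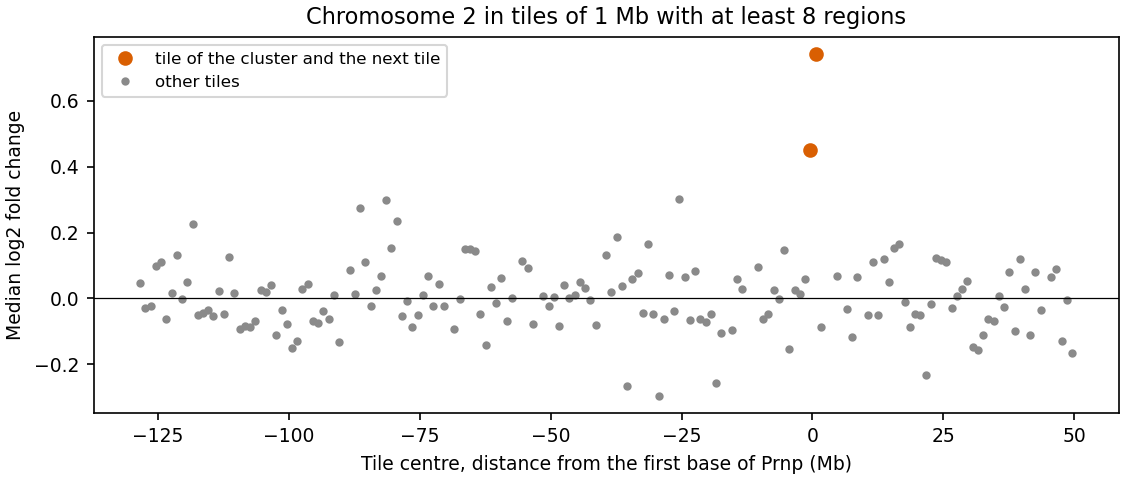
Median log2 fold change of chromosome 2 regions in tiles of 1 Mb with at least 8 regions, against the distance of the tile centre from the first base of Prnp in Mb. The tile of the cluster (0.45) and the next (0.74) lie above all others, of which the highest is 0.30. The tile of the cluster includes the cluster's own regions, and the stretch was chosen by these values.

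Other members of the gene families gave few regions to set beside the cluster. Of the prion protein family (Prnp, Prnd, Prn and Sprn, which encodes Shadoo), 2 of 4 genes had a region within 5 kb, Prnp and Prn, which share them. Of 29 genes derived from retroviruses or retrotransposons, 27 were in the RefSeq table and 9 had a region, with 21 regions and 1 call, that at Erv3. The 20 others had 0 calls by the deposited edgeR FDR and 0 in a normal approximation, where 0.281% of all regions were called, so 0 of 20 says little about these genes. An unadjusted p below 0.05 was found in 2 of the 20, against 4.74% of all regions. They had a median of 0.16 and ranged from -0.36 to 0.73, by the authors' deposited table. Regions at Fv1, a restriction factor of gag origin, had -0.08 and 0.22 (FDR 1 each), and those at the imprinted gene Peg10 -0.01 (FDR 1) and 0.39 (FDR 0.406), by the authors' deposited table. The envelope-derived syncytin genes Syna and Synb had no region within 5 kb.

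Of 23 genes for H3K9 methylation and retroviral silencing, 8 had a region, and of their 17 regions 0 were called by the deposited edgeR FDR, 0 in a normal approximation. With 0.281% of all regions called, 0 of 17 says little about these genes. An unadjusted p below 0.05 was found in 2 of the 17, against 4.74% of all regions. The values ranged from -0.42 to 1.48 with a median of 0.19, by the authors' deposited table. All regions at Atf7ip2 and Morc3 lay on chromosome 16 and were positive, and the regions of that chromosome had a median of 0.32. The median of the list and its count of small p-values are therefore not read as a trait of these genes. The smallest p was at Atf7ip2 on chromosome 16, where the authors' deposited table has a log2 fold change of 0.19 (FDR 0.182) and 85.7% of that chromosome's 2539 regions were positive. The other of the 2, a weak region at Pphln1 with 5.08 CPM, had the highest value of the list, 1.48 (SE 0.53, FDR 0.481; the authors' deposited table). Setdb1 and Trim28 had no region within 5 kb.

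The targeted gene, Tex19.1, had no region within 5 kb, so the table does not check the genotype labels there. Its neighbour Tex19.2, on chromosome 11, had 0.28 (FDR 1; the authors' deposited table). Regions of chromosomes 11 and 16 together had a median of 0.30, and 84.6% of them were positive. Regions within 5 kb were found at 2 of 10 stem cell markers (Nanog and Esrrb) and 4 of 8 fibroblast markers. They were also found at 2 of 8 early lineage markers and 4 of 5 neuron or brain markers. These 3, 5, 3 and 14 regions, in that order, held 0 calls, where 0.281% of all regions were called. An unadjusted p below 0.05 was found in 0, 2, 0 and 2 of these regions in the same order, against 4.74% of all regions. Both of those at neuron or brain markers, in Rbfox3, lay on chromosome 11, as did 1 of those at fibroblast markers, at Col1a1. The other, at Thy1 on chromosome 9, had 0.72 (SE 0.35, FDR 0.992; the authors' deposited table). The 5 regions at fibroblast markers ranged from -0.88, at Pdgfra, to that value. On chromosomes 11 and 16 together, 962 of 5757 regions had such a p, so these counts are not read against 4.74%. A table of H3K9me3 does not measure expression, so these counts do not check the cell type.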

How the data were processed

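H3K9me3 immunoprecipitates and inputs were sequenced with paired 75-nt reads, per the labels. Groups were taken from the titles, since the genotype field contradicts the title in 6 of the 12 libraries. The labels do not say whether libraries of 1 genotype came from separate cultures. Per the submitters' processing notes, tools included edgeR, bedtools 2.25.0, HOMER 4.8 and Bowtie2 2.2.6, on mm10, without roles. Not given in the sources used here are the way regions were defined, the libraries that entered and any use of input.

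Per the file headers, the authors' deposited table gives a log2 fold change and an average log2 CPM per region. Its p-value and FDR are also the authors', per the file headers. It has 0 columns of single libraries, so the planned count test gave way to description, and depth per library is unknown. CPM was computed as 2 to the power of the deposited log2 CPM, and over all regions sums to 1081650. Values are relative within a library, so a genome-wide rise or fall of the mark would be hidden.

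The SE is the size of the log2 fold change over the normal deviate that its 2-sided p-value corresponds to, where that deviate is at least 1 (8 of the 9 cluster regions). Otherwise it is the median SE of regions in the same log2 CPM bin of 0.5. Recomputed Benjamini-Hochberg values differed from the deposited FDR by at most 3.2e-05. Genes came from the RefSeq table of GRCm38.p6 (49997 genes). List regions lay within 5 kb of a gene. Coordinates are printed as deposited, and a start counted from 0 would shorten widths by 1 bp. Functions were tested on simulated data. Python 3.11.15, pandas 2.3.3, numpy 2.4.6, scipy 1.17.1 and matplotlib 3.10.9 were used.

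All regions of the stretch were described, and in each 1 Mb flank the 3 of smallest p and the 3 of highest CPM. Members, lists and tests were chosen with earlier results of these data known. Regions at the edges and the run were named after their values were seen. Alternatives covered the adjustment, the FDR limit, the extent of the stretch and flanks, the signal minimum and the reference level.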

Additional observations from a re-analysis of the deposited data

How the results depend on the processing

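The 4 calls of the cluster became 3 at an FDR limit of 0.01 and 2 under Holm adjustment, and were 4 in the other alternatives, among them adjustment without chromosomes 11 and 16, chosen after seeing the data. The call at Erv3 was lost at the limit of 0.01 (adjusted p = 0.0165) and under Holm adjustment (adjusted p = 1), with adjusted p from 0.00633 to 0.0363 in the alternatives that kept it. The call in Prnp from 131915868 was lost under Holm adjustment alone (adjusted p = 0.23; elsewhere 0.00113 to 0.00458). The 2 calls of the flanks, both on the right, became 1 at the limit of 0.01, 1 in the normal approximation, 1 without chromosomes 11 and 16, and 0 under Holm adjustment. The median of the cluster stayed between 0.56 and 0.65 in its 5 alternatives. The median of the left flank, 0.37, depended on its extent and signal. It was -0.032 within 0.5 Mb, over 12 regions, and -0.13 over its 3 regions of at least 16 CPM, and 0.064 within 2 Mb. The median of the right flank was 0.33 within 2 Mb in place of 0.72. The run of 24 positive regions held 17, to 132339871, relative to regions of like signal. With regions of at least 16 CPM alone it held 10 and, with fewer regions to break it, reached 133536022. Weak regions limit the detail, since no region below a log2 CPM of 2 was called. No paired analysis was possible because the table has no values of single libraries, and no replicate could be left out for the same reason.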

Other observations

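Of 15372 runs of consecutive positive regions in the authors' deposited table, 23 others held at least 24 regions. Of these, 19 lay on chromosomes 11 and 16, where 84.6% of regions are positive, and 4 on other chromosomes. Those 4 were 1 run on chromosome 6 from 136436036 to 136754520, with 29 regions and a median of 0.46, and 3 runs on chromosome 13 between 22634041 and 26162946, with 27, 45 and 48 regions and medians of 0.47, 0.49 and 0.62. The run that holds Prnp and Erv3 had a median of 0.70, and no other run of chromosome 2 was as long. One other run held at least as many called regions (6), the second of those on chromosome 13. Of the calls in the run that holds Prnp and Erv3, 4 lay in the cluster, which was chosen by these values. The length of a run depends on how densely regions are listed, so runs of equal count differ in span.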
